A study of Mus musculus with 30 samples.

Results

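The genes described here are 10 genes of vascular endothelium: Pecam1, Cdh5, Emcn, Kdr, Flt1, Tek, Sox17, Bcl6b, Vwf and Edn1. They were taken by symbol from the deposited count tables, where they are 10 of 24062 symbols, and all 10 had enough counts to be tested in both tissues. The study measured poly-A RNA by sequencing in terminal ileum and in the post-caval lobe of the lung of C57bl/6 mice that overexpressed TL1A, the TNF family cytokine encoded by Tnfsf15. In the Mem group the overexpressed TL1A was restricted to the membrane by a deletion labelled Delta 69-93, and in the Mem+Sol group both the membrane-bound and the soluble form were overexpressed. The WT group served as the control, although its label itself also mentions TL1A driven by the CD2 promoter, which is active in T cells. The sources used here give neither the mice's ages nor the number of transgenic lines.

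WT and Mem had 5 libraries each in either tissue, and Mem+Sol had 6 in ileum and 4 in lung. Female and male libraries numbered 1 and 4 in ileum WT, 2 and 3 in ileum Mem and 3 and 3 in ileum Mem+Sol. In lung they numbered 2 and 3 in WT, 3 and 2 in Mem and 3 and 1 in Mem+Sol. The female ileum WT library was replicate 1, so every fit without it had no female WT ileum library. All ileum libraries were sequenced in batch 3, whereas each lung genotype was divided between batch 1 and batch 2. Total counts per library were 4295039 to 36133187 in ileum and 22259203 to 39089383 in lung. The ileum WT libraries had the lowest mean, at 4295039 to 13226790 counts, against 10632559 to 32653753 in Mem and 12482151 to 36133187 in Mem+Sol, and the ranges overlapped. Counts of the 10 genes ran from 9 to 4078 in ileum and from 648 to 48601 in lung, so the precision of single values was lower in ileum. The labels do not state that each library came from a separate animal, so p-values measure the spread between these samples. The epithelial gene Vil1 was at 648 to 3758 CPM (counts scaled to library size) in ileum and at most 1.58 CPM in lung, while the surfactant gene Sftpc was at 10412 CPM or more in lung and at most 0.132 CPM in ileum. Tnfsf15 separated the lung groups without overlap (4.49 to 9.92 CPM in WT, 20.2 to 24.5 CPM in Mem, 61.5 to 97.9 CPM in Mem+Sol) but overlapped between all ileum groups (1.83 to 7.25, 3.64 to 5.42 and 4.55 to 10.2 CPM). On the first principal component of the ileum, 44.7% of the variance, Mem replicate 1 lay at -39.9, apart from the other Mem libraries (23.2 to 30.2) and closer to WT (-84.0 to -51.3). On that of the lung, 34.5% of the variance, Mem replicate 1 lay at -18.0, among the WT libraries (-33.4 to -6.81). Lung Mem replicate 2, also of batch 2, lay at 2.68, and the batch 1 Mem libraries lay at 32.6 to 44.7.

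Endothelial cells line all blood vessels and hold them together by junctional adhesion proteins, sense growth factors through receptor tyrosine kinases, and store and secrete factors that act on clotting and vessel tone. Vascular endothelial growth factors act on the receptors Kdr and Flt1, and angiopoietins act on the receptor Tek, which keeps vessels stable and quiescent. Lung tissue is rich in capillary endothelium, whereas in the intestine vessels form a smaller part of a wall made mostly of epithelium, muscle and lymphoid tissue.

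In the GENCODE annotation of GRCm38 the 10 genes are spread over 8 chromosomes. Among the adhesion and surface genes, Pecam1 lies at chr11:106654217-106750628 (minus strand), Cdh5 at chr8:104101625-104144511 (plus) and Emcn at chr3:137341067-137432185 (plus). Among the receptors, Kdr lies at chr5:75932827-75978458 (minus), Flt1 at chr5:147561604-147726011 (minus) and Tek at chr4:94739289-94874976 (plus). The transcription factor genes are Sox17 at chr1:4490931-4497354 (minus) and Bcl6b at chr11:70224128-70229798 (minus), and the genes of secreted products are Vwf at chr6:125546774-125686679 (plus) and Edn1 at chr13:42301476-42307990 (plus).

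Promoter sequence was taken for the 4 genes whose changes in lung are described in most detail and that have an entry in the RefSeq table (5 of the 10 genes, with Emcn as the fifth). Each sequence runs 5′ to 3′ on the gene's strand in build GRCm38.p6, from 250 bases before to 50 bases after the transcription start, and capitals mark the motif matches described after it. The windows are chr4:94739039-94739338 on the plus strand for Tek, chr5:75978406-75978705 on the minus strand for Kdr, chr5:147725962-147726261 on the minus strand for Flt1 and chr13:42301226-42301525 on the plus strand for Edn1.
Tek: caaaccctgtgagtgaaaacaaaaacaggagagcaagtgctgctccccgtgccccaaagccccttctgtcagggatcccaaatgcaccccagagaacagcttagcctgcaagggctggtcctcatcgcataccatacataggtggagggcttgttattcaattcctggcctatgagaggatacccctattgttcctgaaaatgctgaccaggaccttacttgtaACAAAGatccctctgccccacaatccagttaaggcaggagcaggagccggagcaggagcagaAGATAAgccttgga
Kdr: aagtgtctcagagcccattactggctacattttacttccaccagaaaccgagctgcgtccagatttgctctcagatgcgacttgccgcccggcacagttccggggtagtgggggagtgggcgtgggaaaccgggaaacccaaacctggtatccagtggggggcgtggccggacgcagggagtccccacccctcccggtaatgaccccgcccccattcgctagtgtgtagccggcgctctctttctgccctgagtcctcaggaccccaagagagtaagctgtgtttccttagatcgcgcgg
Flt1: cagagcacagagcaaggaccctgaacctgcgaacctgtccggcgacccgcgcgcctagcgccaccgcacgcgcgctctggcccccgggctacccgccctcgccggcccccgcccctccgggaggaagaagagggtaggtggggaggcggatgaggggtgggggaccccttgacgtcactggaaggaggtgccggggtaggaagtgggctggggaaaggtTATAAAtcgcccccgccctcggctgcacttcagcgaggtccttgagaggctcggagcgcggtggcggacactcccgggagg
Edn1: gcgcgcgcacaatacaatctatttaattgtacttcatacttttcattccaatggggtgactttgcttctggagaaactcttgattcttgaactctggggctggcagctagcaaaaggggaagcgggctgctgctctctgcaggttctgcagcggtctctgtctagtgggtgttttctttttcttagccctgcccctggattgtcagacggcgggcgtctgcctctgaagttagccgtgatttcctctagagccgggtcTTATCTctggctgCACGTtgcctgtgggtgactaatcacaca

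Both strands were searched for 7 short motifs, whose frequency was counted over 32817 RefSeq mouse promoters of the same length. The GATA motif AGATAA, present in 11.2% of all promoters, matched Tek at 36 to 41 bases and, on the opposite strand, Edn1 at 8 to 13 bases from the start. Tek also held the SOX motif ACAAAG (18.7% of promoters) at -26 to -21, Flt1 held TATAAA (13.6%) at -31 to -26, and Edn1 held the hypoxia response motif ACGTG (19.6%) on the opposite strand at 21 to 25. Kdr matched none of them, and no window of these 4 held the ETS motifs CAGGAAG (13.3%) or CCGGAAG (8.86%) or the AP-1 motif TGANTCA (7.81%). Emcn held CAGGAAG on the opposite strand at -174 to -168. Tek, Kdr and Flt1, which fell in Mem lung, shared no match. Vwf, Pecam1, Cdh5, Bcl6b and Sox17 had no promoter entry and were not searched. A match describes letters in the window only.

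In WT mice all 10 genes were expressed in both tissues and were 8.02-fold (Edn1) to 57.6-fold (Cdh5) higher in mean CPM in lung than in ileum. Between these ends, the ratio of lung to ileum was 11.4 for Emcn, 20.6 for Flt1, 23.0 for Sox17, 24.0 for Bcl6b, 24.3 for Vwf, 26.9 for Kdr, 29.6 for Pecam1 and 55.9 for Tek. The tables were normalized separately and the tissues were sequenced in different batches, so tissue and batch cannot be told apart in these ratios. Per kilobase of annotated exon, the lung WT level was highest for Cdh5 (278 ± 13.7 CPM per kb, SD, n = 5), the adhesion protein of endothelial junctions, then Pecam1 (145 ± 11.5), Tek (99.1 ± 6.02), Kdr (59.4 ± 4.86) and Vwf (36.0 ± 4.28). These 5 differed from their neighbours in the order by more than their SDs. Edn1 (25.6 ± 5.01) and Flt1 (20.4 ± 1.81) overlapped within their SDs, and so did Bcl6b (16.3 ± 8.77) with Sox17 (17.7 ± 0.25) above it and Emcn (13.2 ± 1.74) below it. In WT ileum the order began with Pecam1 (4.91 ± 1.65 CPM per kb, SD, n = 5), Cdh5 (4.83 ± 1.78) and Edn1 (3.20 ± 2.09) and ended with Sox17 (0.77 ± 0.60) and Bcl6b (0.68 ± 0.35), and every neighbouring pair overlapped within the SDs.

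In the ileum the 10 genes were higher on average in Mem than in WT mice, and Vwf, Pecam1 and Cdh5 rose past the threshold, by 2.49-, 2.21- and 1.94-fold. All 10 log2 differences were positive, from 0.36 (Kdr) to 1.31 (Vwf), with a median of 0.89 against 0.00 over all 14959 genes tested. The threshold was an adjusted p of 0.05 from the quasi-likelihood test of edgeR, Benjamini-Hochberg adjusted over all genes tested in the tissue, with sex as a covariate; this is what "called" means throughout. Of the 10 genes, 3 were called higher and 0 lower, beside 5% of all genes called higher and 3.06% lower (8.06% in either direction). 8 of the 10 had an unadjusted p under 0.05.

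Pecam1, an adhesion protein of endothelial junctions and platelets, was at 37.3, 40.2, 31.5, 13.7 and 30.1 CPM in the WT ileum libraries. The Mem libraries were at 38.8, 69.9, 84.2, 84.1 and 70.6 CPM, and the 6 Mem+Sol libraries ran from 67.7 through a median of 82.3 to 108 CPM. Only Mem replicate 1 lay within the WT range, and no Mem+Sol library did. The log2 difference was 1.14 ± 0.25 (SE, adjusted p = 0.0117) for Mem and 1.42 ± 0.25 (adjusted p = 0.000846) for Mem+Sol. Without Mem replicate 4 the adjusted p of Pecam1 in Mem was 0.0506.

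Cdh5 was at 28.4, 26.2, 17.5, 9.50 and 19.96 CPM in WT ileum. In Mem it was at 26.2, 35.6, 51.6, 50.2 and 36.6 CPM, and in Mem+Sol it ran from 25.0 through 42.7 to 47.2 CPM. All but 1 library each of Mem and of Mem+Sol lay above the highest WT library. Cdh5 differed by 0.96 ± 0.26 log2 (adjusted p = 0.0348) in Mem and by 0.97 ± 0.26 (adjusted p = 0.0105) in Mem+Sol. Its Mem call was lost on leaving out any of 6 libraries: Mem 2 (adjusted p = 0.0811), Mem 3 (0.0769), Mem 4 (0.126), WT 3 (0.0734), WT 4 (0.0677) or WT 5 (0.0563). Emcn, a mucin-like surface protein of capillaries and veins, was at 2.35 to 10.1 CPM in WT, 6.98 to 14.4 CPM in Mem and 8.16 to 17.4 CPM in Mem+Sol. Its 0.75 ± 0.33 log2 in Mem was not called (adjusted p = 0.173).

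None of the receptors was called in Mem ileum. Kdr, the main signalling receptor for VEGF, was at 18.5, 28.0, 24.8, 8.01 and 20.3 CPM in WT ileum and at 21.9, 18.5, 29.98, 32.3 and 22.2 CPM in Mem. WT replicate 4 was the lowest library and 3 of 5 Mem libraries lay inside the WT range. The difference of 0.36 ± 0.33 log2 had an adjusted p of 0.545. Flt1, a VEGF receptor that also acts as a decoy, was at 15.7, 25.9, 11.9, 3.31 and 10.2 CPM in WT and at 18.8, 22.9, 25.1, 29.5 and 20.5 CPM in Mem, a difference of 0.81 ± 0.35 log2 (adjusted p = 0.160). Without WT replicate 2, the highest WT library for Flt1, the difference was 1.18 and was called (adjusted p = 0.0381). Tek, at 3.52 to 10.4 CPM in WT and 6.98 to 21.2 CPM in Mem, differed by 0.72 ± 0.29 (adjusted p = 0.134), and by 0.90 (adjusted p = 0.0341) without Mem replicate 1.

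The transcription factors were the lowest of the 10 genes in ileum. Bcl6b, a repressor found mainly in endothelium, was at 1.64, 2.33, 4.82, 2.03 and 1.82 CPM in WT and at 4.72, 5.10, 3.80, 6.68 and 3.26 CPM in Mem, a difference of 0.97 ± 0.30 log2 (adjusted p = 0.0583). WT replicate 3 stood above the other WT libraries, and without it the difference was 1.31 and called (adjusted p = 0.0156); Bcl6b was also called without Mem replicate 1, Mem+Sol replicate 4 or Mem+Sol replicate 6, by DESeq2 (adjusted p = 0.0189) and with only WT and Mem fitted (0.0448). Sox17, a factor of arterial endothelium, ran from 1.17 to 8.20 CPM in WT and from 4.28 to 7.21 CPM in Mem, and no Mem or Mem+Sol library lay above WT replicate 1. Its difference in Mem was 0.59 ± 0.35 log2 (adjusted p = 0.324), and 1.17 (adjusted p = 0.0489) without WT replicate 1, the only female WT library in ileum.

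Vwf, the clotting factor that endothelial cells store and release, had the largest Mem difference of the 10 genes. It was at 31.2, 33.4, 23.1, 8.22 and 23.2 CPM in WT ileum, at 34.5, 63.9, 76.0, 75.1 and 56.0 CPM in Mem, and at 48.6 to 85.9 CPM (median 59.7) in Mem+Sol. Every Mem and Mem+Sol library lay above every WT library. This was so for 4.79% of all genes in Mem and 7.57% in Mem+Sol, with 3.94% and 5.97% below. The log2 difference of Vwf was 1.31 ± 0.29 (adjusted p = 0.0117) in Mem, and it stayed called on leaving out each library in turn, with adjusted p up to 0.0494. Edn1, the vasoconstrictor peptide endothelin, was at 14.5, 4.66, 2.87, 5.87 and 6.30 CPM in WT and at 6.39, 19.7, 12.8, 13.4 and 20.5 CPM in Mem. WT replicate 1 lay above the Mem median, and the difference of 1.06 ± 0.38 log2 was not called (adjusted p = 0.0932), but it was without WT replicate 1 (1.59, adjusted p = 0.0247) or without Mem replicate 1 (1.24, adjusted p = 0.0311).

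Single libraries moved the number of endothelial genes called higher in Mem ileum. The count was 6 without Mem replicate 1, 5 without WT replicate 1 and 1, Vwf, without Mem replicate 4. Mem replicate 1 had the lowest CPM of its group for 7 of the 10 genes, and WT replicate 4 had the lowest of its group for 8 of 10. With every ileum library thinned to the smallest total, the count stayed at 3 in Mem and was 6 in Mem+Sol, where Flt1 lost its call (adjusted p = 0.0836).

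**Figure D1:**
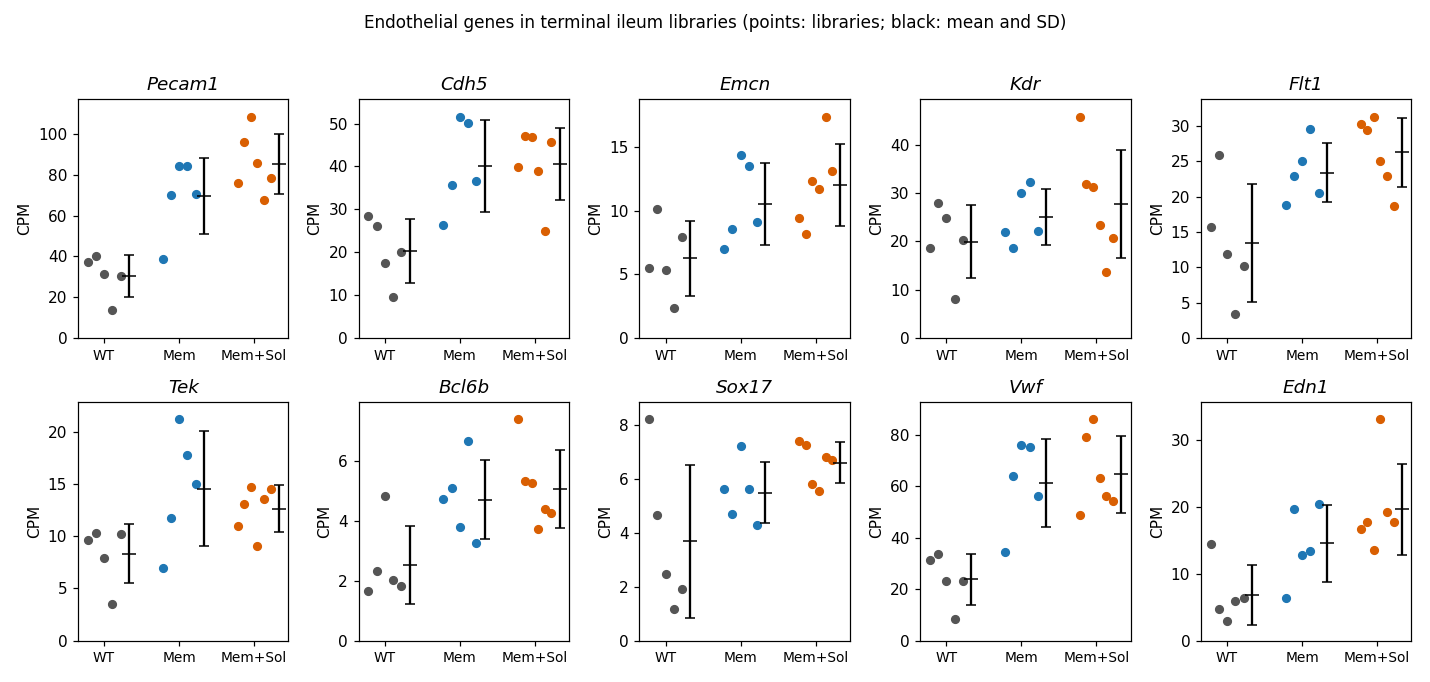
CPM of each of the 10 endothelial genes in every ileum library, 1 panel per gene, with WT, Mem and Mem+Sol along the x axis; points are libraries and bars the group mean with its SD (n = 5, 5 and 6). Vwf is the gene for which all Mem libraries (34.5 CPM and above) sit over all WT libraries (33.4 CPM and below), and for Sox17 the highest point is WT replicate 1 at 8.20 CPM.

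In Mem+Sol ileum 7 of the 10 genes rose relative to WT: Edn1 by 2.81-fold, Pecam1 by 2.67-fold, Vwf by 2.54-fold, and Bcl6b, Cdh5, Flt1 and Emcn by 1.90- to 2.22-fold. None was called lower. The background in this comparison was high, with 16.6% of all genes called higher and 12.1% lower (28.7% in either direction), so a call there says less than one in Mem. The median log2 difference of the 10 genes was 0.96 against 0.01 over all genes tested.

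Edn1 was at 13.6 to 33.1 CPM (median 17.7) in Mem+Sol and 5 of 6 libraries exceeded the highest WT library. Its log2 difference was 1.49 ± 0.37 (SE, adjusted p = 0.0069). Bcl6b was at 3.72 to 7.39 CPM (median 4.83), with a difference of 1.15 ± 0.30 (adjusted p = 0.0103). Vwf differed by 1.34 ± 0.29 (adjusted p = 0.00279), and it and Pecam1 were the 2 genes without overlap with WT. Flt1, at 18.6 to 31.3 CPM, differed by 0.96 ± 0.34 (adjusted p = 0.0437), and Emcn by 0.93 ± 0.32 (adjusted p = 0.0411). Both were near the threshold: Flt1 lost its call on leaving out any of 11 libraries (adjusted p 0.0541 to 0.0829) and Emcn on leaving out any of 9 (0.0522 to 0.113). The libraries were Mem 2 to 5, Mem+Sol 1 to 4 and WT 1, 3 and 5 for Flt1, and Mem 4 and 5, Mem+Sol 3 to 6 and WT 1, 3 and 4 for Emcn. With only WT and Mem+Sol fitted, both lost their calls as well (0.0797 and 0.0509).

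Kdr, Tek and Sox17 were not called in Mem+Sol ileum. Kdr ran from 13.5 to 45.7 CPM, wider than the WT range of 8.01 to 28.0 CPM, and differed by 0.51 ± 0.32 log2 (adjusted p = 0.237). Tek was at 9.04 to 14.8 CPM and differed by 0.50 ± 0.28 (adjusted p = 0.189). Sox17 was at 5.54 to 7.39 CPM, a difference of 0.82 ± 0.34 (adjusted p = 0.0808), which was 1.41 (adjusted p = 0.00663) without WT replicate 1.

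Between Mem+Sol and Mem, none of the 10 genes was called in ileum. Differences ran from -0.22 ± 0.26 log2 (SE) for Tek to 0.43 ± 0.35 for Edn1, with a median of 0.17. edgeR's quasi-likelihood test called 0 of 10, DESeq2 called 0, and 0 had an unadjusted p under 0.05. Over all genes 0.0134% were called (0.0134% higher, 0% lower), and 0.602% lay wholly above and 0.308% wholly below the other group. Standard errors ran from 0.23 log2 (Pecam1) to 0.35 (Edn1). In simulated ileum counts the Mem against WT test called 29% of genes changed by 1 log2 and 2% of those changed by 0.5. Mem+Sol against Mem was not simulated, and its libraries had more counts on average than those of WT. With the standard errors above, the absence of calls does not show that the 2 groups were alike.

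Other genes of the same pathways were read from lists of endothelial function. Their counts stand beside 5% of all genes called higher and 3.06% lower in Mem ileum, and 16.6% and 12.1% in Mem+Sol ileum. Of 12 further pan-endothelial genes, 6 were called higher and 0 lower in Mem ileum (median 0.77) and 10 and 0 in Mem+Sol (median 0.99). Tie1, the partner receptor of Tek, rose from 18.4 ± 4.34 CPM (SD, n = 5) in WT to 33.4 ± 5.01 in Mem and 36.7 ± 4.27 (n = 6) in Mem+Sol, by 0.85 ± 0.17 and 0.98 ± 0.17 log2 (SE; adjusted p = 0.00798 and 0.000765). Angpt2, the angiopoietin that opposes Tek signalling, rose from 2.47 ± 0.897 to 8.61 ± 3.04 and 9.91 ± 5.02 CPM (1.67 ± 0.33 and 1.70 ± 0.33 log2, adjusted p = 0.00775 and 0.00178). Of 4 angiopoietin and Tie genes tested, these 2 were called in each comparison (medians 0.71 and 0.76); Tie1 is also on the pan-endothelial list. Among 8 VEGF ligands and receptors other than Kdr and Flt1, 2 were called higher and 1 lower in Mem (median 0.47), and 4 and 1 in Mem+Sol (median 0.80). The gene called lower was Vegfa, the main VEGF ligand, at 197 ± 45.6 CPM in WT, 102 ± 38.4 in Mem and 90.2 ± 24.9 in Mem+Sol. Its -1.09 ± 0.25 log2 in Mem+Sol had an adjusted p of 0.00483, and its -0.94 ± 0.26 in Mem (adjusted p = 0.0346) lost the call on leaving out any of 8 libraries (Mem 2 to 5 or WT 1 to 4, adjusted p up to 0.109).

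Of 13 Notch and arterial genes, 1 was called higher in Mem ileum (median 0.67), and 3 higher and 1 lower in Mem+Sol (median 0.52). Over all genes 5% were called higher and 3.06% lower in Mem, and 16.6% and 12.1% in Mem+Sol. A single call in a list of 6 or 8 genes is near the Mem+Sol share. Bmx, a kinase of arterial endothelium, rose from 2.64 ± 0.43 CPM (SD, n = 5) to 21.9 ± 10.4 and 24.0 ± 6.09 CPM, by 2.99 ± 0.40 and 3.12 ± 0.40 log2 (adjusted p = 0.000434 and 0.000123). Gja5, an arterial gap junction protein, rose in Mem+Sol from 1.81 to 6.65 CPM (1.86 ± 0.35, adjusted p = 0.00142), whereas the Notch ligand Dll4 fell from 36.7 to 19.8 CPM (-0.89 ± 0.21, adjusted p = 0.00474). The lung capillary list had 3 of 10 genes higher in Mem (median 0.88) and 7 of 10 in Mem+Sol (1.16). The 3 in Mem were Car4, which gut epithelium also expresses, Plvap and Aplnr. Plvap and Aplnr lost this call on leaving out any of 6 and 9 libraries. Plvap and Gpihbp1 of this list are also on the pan-endothelial list. Of 6 endothelin pathway genes 1, the receptor gene Ednra, was called higher in each (medians 0.11 and 0.08), and of 8 venous and adhesion genes 1, Selp, was (medians 0.41 and 0.54). Ednra lost its Mem call on leaving out either of 2 libraries, and Selp lost its calls on leaving out any of 6 in Mem and 7 in Mem+Sol. Of 6 haemostasis genes tested, 1 was called higher in Mem and 3 in Mem+Sol (medians 0.44 and 0.61).

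Genes of other cell types also differed between the groups in ileum. Of 8 smooth muscle genes, 4 were called higher in Mem (median 1.43 log2) and 8 in Mem+Sol (2.46). All 7 fibroblast genes were called higher in both (medians 1.21 and 1.49), and 1 and 5 of 8 pericyte genes. The shares over all genes were 5% higher and 3.06% lower in Mem, and 16.6% and 12.1% in Mem+Sol. In Mem the pericyte gene, Higd1b, lost its call in 14 of 16 fits that each left out a library. Tagln and Dcn lost theirs in 7 each, whereas Actg2, Des, Col1a2, Col3a1 and Lum kept theirs in all. The summed smooth muscle level was 2164 to 4861 CPM in WT, 7507 to 12729 CPM in Mem and 10659 to 50796 CPM in Mem+Sol, and the summed fibroblast level was 1100 to 2434, 2033 to 4823 and 3098 to 7017 CPM. Pericyte sums were 170 to 347, 278 to 544 and 234 to 1063 CPM. Epithelial sums ran the other way, at 13576 to 17596 CPM in WT, 9435 to 14691 CPM in Mem and 8082 to 15775 CPM in Mem+Sol, with 2 and 3 of 8 genes called lower and 1 higher in each. The Mem calls of the epithelial genes Cldn7, Krt18 and Cldn3 were lost in 12, 10 and 8 of the 16 fits. The sums of the 10 endothelial genes were 57.7 to 186, 171 to 328 and 247 to 355 CPM. Within Mem+Sol, replicate 6 had the highest smooth muscle sum, 50796 CPM, and an endothelial sum of 274 CPM. Replicate 3 had the lowest smooth muscle sum, 10659 CPM, and the highest endothelial sum, 355 CPM. Within Mem, replicate 1 had the lowest sum of both, 7507 and 171 CPM. Mem replicate 3 had the highest smooth muscle sum, 12729 CPM, and an endothelial sum of 326 CPM. Within WT, replicate 4 had the highest smooth muscle sum, 4861 CPM, and the lowest endothelial sum, 57.7 CPM. No gene of the smooth muscle, fibroblast, pericyte or epithelial lists was at 0 throughout. Platelet genes, which matter for Vwf and Pecam1, summed to 114 to 143, 120 to 168 and 140 to 172 CPM, with 1 of 5 tested called higher in Mem and 3 higher and 1 lower in Mem+Sol. Of 6 red cell genes, 4 were at 0 in every library. Leukocyte genes summed to 114 to 240, 147 to 193 and 148 to 290 CPM. Of these 6 genes edgeR called 0 in Mem (2 at an unadjusted p under 0.05). In Mem+Sol 1, Laptm5, was called higher and 1, Cd3e, lower, and Cd3e lost its call on leaving out any of 6 libraries. The part of tissue composition in the endothelial differences was not tested, and in bulk RNA fewer cells of a type and less RNA per cell cannot be told apart.

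**Figure D2:**
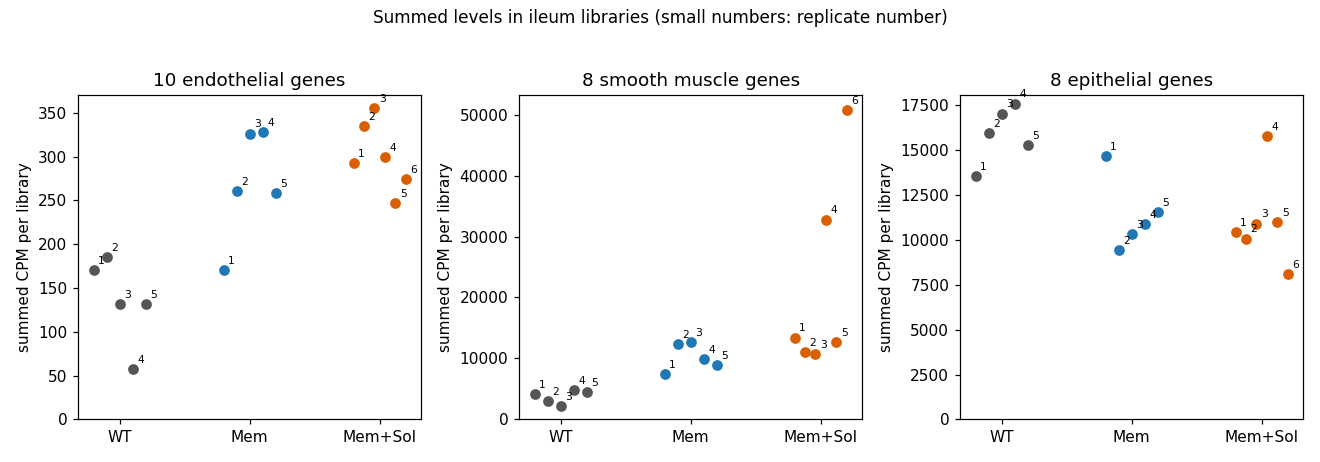
Summed CPM per ileum library (y axis, 1 panel each) of the 10 endothelial genes, 8 smooth muscle genes and 8 epithelial genes, by genotype (x axis); each point is 1 library with its replicate number. Endothelial sums of all Mem and Mem+Sol libraries but Mem replicate 1 (171 CPM) exceed the highest WT sum (186 CPM). Every smooth muscle sum of Mem and Mem+Sol exceeds WT, with Mem+Sol replicate 6 highest (50796 CPM), and epithelial sums overlap in part.

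In the lung of Mem mice the endothelial genes were lower rather than higher, and the 3 growth factor receptors fell, Flt1 to 0.689, Tek to 0.714 and Kdr to 0.735 of the WT level. All 10 log2 differences were negative, from -0.54 (Flt1) to -0.02 (Bcl6b), with a median of -0.27 against -0.02 over all 15885 genes tested. Of the 10 genes, 3 were called lower and 0 higher, beside 3.05% of all genes called lower and 6.41% higher (9.46% in either direction). The lung model held sex and sequencing batch as covariates.

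Tek was at 424, 472, 503, 464 and 471 CPM in WT lung. The Mem libraries were at 385, 346, 317, 317 and 301 CPM, and the Mem+Sol libraries at 391, 350.1, 423 and 389 CPM. Every Mem library lay below every WT library, as did every Mem+Sol library. Among all genes 1.2% lay wholly below and 3.81% wholly above WT in Mem, and 1.55% and 2.08% in Mem+Sol. The log2 difference of Tek in Mem was -0.49 ± 0.08 (SE, adjusted p = 0.00212), and it stayed called on leaving out each library (adjusted p up to 0.0129).

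Flt1 was at 293, 309.7, 256, 253 and 269 CPM in WT lung and at 271, 229, 151, 165 and 156 CPM in Mem. Mem replicate 1 lay inside the WT range and the other 4 below it. The difference was -0.54 ± 0.09 log2 (adjusted p = 0.00198) and it stayed called on leaving out each library (adjusted p up to 0.0126). Kdr was at 511, 536, 597, 558 and 482 CPM in WT and at 532, 447, 380.1, 287 and 316 CPM in Mem, again with replicate 1 alone inside the WT range. Its difference was -0.44 ± 0.11 log2 (adjusted p = 0.0217). Kdr lost its call on leaving out any of 6 libraries: Mem 3 (adjusted p = 0.0807), Mem 4 (0.0526), Mem 5 (0.0549), WT 2 (0.0511), WT 3 (0.0509) or WT 5 (0.0762).

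Of the junction and surface genes none was called in Mem lung. Cdh5 was at 1184, 1124, 1099, 1198 and 1241 CPM in WT and at 1182, 1062, 791, 769 and 837 CPM in Mem, so 4 of 5 Mem libraries lay below all WT libraries. The difference was -0.34 ± 0.11 log2 (adjusted p = 0.0709), and without Mem replicate 1 it was -0.47 (adjusted p = 0.0109), while DESeq2 called it with all libraries (adjusted p = 0.0214). Pecam1, at 819 to 1005 CPM in WT and 653 to 862 CPM in Mem, differed by -0.21 ± 0.08 (adjusted p = 0.123) and by -0.29 (adjusted p = 0.0368) without Mem replicate 1, so that 5 endothelial genes were called without that library. Emcn differed by -0.04 ± 0.10 (adjusted p = 0.810). Vwf (-0.13 ± 0.12), Sox17 (-0.14 ± 0.11), Bcl6b (-0.02 ± 0.20) and Edn1 (-0.32 ± 0.15) were not called either, with adjusted p-values of 0.525, 0.448, 0.96 and 0.179. Sox17 had little spread in WT, at 83.3 to 86.6 CPM.

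**Figure D3:**
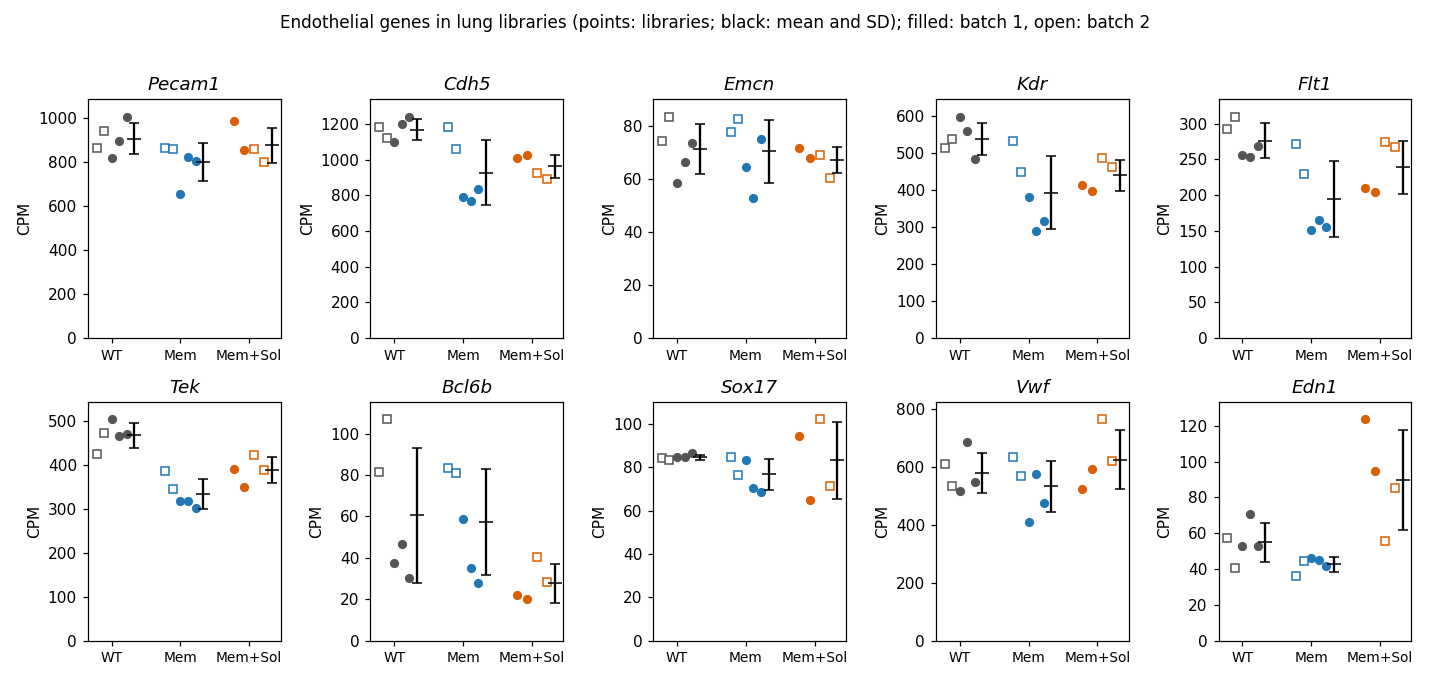
CPM of each of the 10 endothelial genes in every lung library, by genotype; filled points are batch 1, open points batch 2, and bars show the group mean with its SD (n = 5 WT, 5 Mem and 4 Mem+Sol). For Tek all Mem points (385 CPM and below) lie under all WT points (424 CPM and above), and for Flt1, Kdr and Cdh5 the open Mem points lie above the filled ones.

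The receptor differences in Mem lung were also fitted within each sequencing batch. Batch 1 was fitted with the sex term and batch 2, here and below, without it. The fit of batch 2 called few genes at all in Mem. In batch 1 alone (3 WT and 3 Mem libraries) Flt1 was at -0.73 log2, Kdr at -0.62, Tek at -0.59 and Cdh5 at -0.56, all called (adjusted p = 0.00368, 0.0104, 0.0137 and 0.0186). In batch 2 alone (2 WT and 2 Mem) they were at -0.27, -0.10, -0.29 and -0.04, and none was called (adjusted p = 0.275, 0.729, 0.245 and 0.892). The summed level of the 10 genes was 2954 to 3138 CPM in the batch 1 Mem libraries and 3794 to 4147 CPM in the batch 2 Mem libraries, against 4023 to 4321 and 4184 to 4231 CPM in WT. An interaction of genotype and batch, chosen after seeing the data, gave batch differences (batch 2 minus batch 1) of 0.58 for Kdr, 0.52 for Cdh5, 0.46 for Flt1 and 0.33 for Tek. Their unadjusted p-values were 0.00391, 0.00272, 0.00448 and 0.0374, and the adjusted p was 0.900 for each. edgeR's quasi-likelihood test called 0% of all genes in this interaction (0 of 15885, with 828 at an unadjusted p under 0.05), so a difference between batches was not established for any gene; DESeq2 was not run on it. For Mem+Sol the interaction likewise called 0% (1040 at an unadjusted p under 0.05, none of the 10 genes). Without the batch term, Flt1 (adjusted p = 0.134) and Kdr (0.122) lost their calls and Tek kept its own (0.00717).

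**Figure D4:**
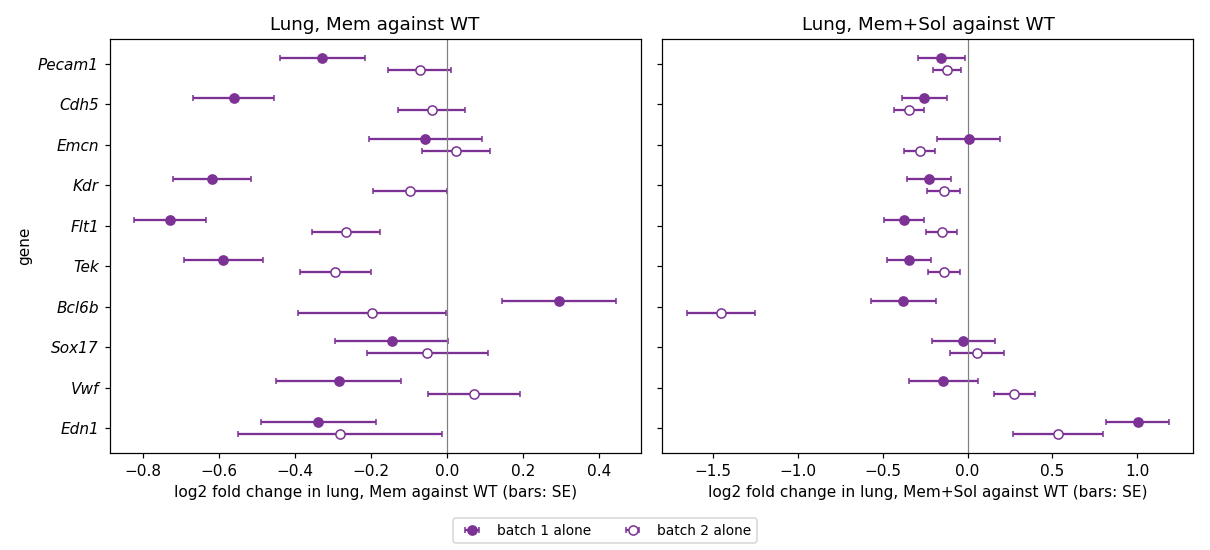
Log2 difference from WT of the 10 endothelial genes in lung when batch 1 (with a sex term) or batch 2 (without it) is fitted alone. Error bars are SE. For Mem, Flt1, Kdr, Tek and Cdh5 lie between -0.73 and -0.56 in batch 1 and between -0.29 and -0.04 in batch 2.

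In Mem+Sol lung the most prominent differences were in other genes: Edn1 rose by 1.72-fold and Bcl6b fell to 0.467 of the WT level. The other 8 differed by -0.29 (Cdh5) to 0.08 (Vwf) log2 and were not called. Few genes were called at all in this comparison, 0.523% higher and 0.321% lower (0.844% in either direction). The median log2 difference of the 10 genes was -0.20 against 0.01 over all genes.

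Edn1 was at 57.1, 40.7, 52.9, 70.5 and 52.9 CPM in WT lung. In Mem it was at 35.9, 44.6, 45.9, 44.9 and 41.7 CPM, and in Mem+Sol at 124, 94.9, 55.8 and 85.3 CPM. Of the Mem+Sol libraries 3 lay above all WT libraries, and all 4 lay above all Mem libraries. The difference from WT was 0.78 ± 0.16 log2 (SE, adjusted p = 0.0366), at 1.00 in batch 1 alone and 0.53 in batch 2 alone, neither called (adjusted p = 0.149 and 0.285). The call from WT was lost on leaving out Mem 3 (adjusted p = 0.0505), Mem+Sol 1 (0.0533), Mem+Sol 4 (0.255), WT 2 (0.161), WT 3 (0.0605) or WT 5 (0.125), without the batch term (0.277), and with only WT and Mem+Sol fitted (0.0531). The difference from Mem was larger, 1.10 ± 0.15 log2 or 2.14-fold (adjusted p = 0.00600), and stayed called on leaving out each library (adjusted p up to 0.0257).

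Bcl6b was at 81.7, 107, 37.3, 46.9 and 29.997 CPM in WT, at 83.3, 81.2, 59.0, 34.9 and 27.6 CPM in Mem and at 21.9, 20.01, 40.5 and 28.2 CPM in Mem+Sol. Its WT levels did not overlap between batches and ran from 29.997 to 46.9 CPM in batch 1 and from 81.7 to 107 CPM in batch 2. The Mem+Sol difference from WT was -1.10 ± 0.22 log2 (adjusted p = 0.0401), at -0.38 in batch 1 alone (adjusted p = 0.761) and -1.46 in batch 2 alone (0.0183). Against Mem it was -1.08 ± 0.22 (adjusted p = 0.0284), at -0.67 in batch 1 (0.271) and -1.26 in batch 2 (0.0191). The call from WT was lost on leaving out Mem 2 (adjusted p = 0.0636), Mem+Sol 3 (0.0646), Mem+Sol 4 (0.275), WT 1 (0.0578), WT 2 (0.182), WT 3 (0.059) or WT 4 (0.0626), without the filter on low counts (0.0702), and without the batch term (0.525). The call from Mem was lost on leaving out Mem 2 (0.107), Mem+Sol 3 (0.079) or Mem+Sol 4 (0.0847), without the filter (0.0501), with only Mem and Mem+Sol fitted (0.0720), and without the batch term (0.337).

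The receptors were between WT and Mem in Mem+Sol lung. Flt1, at 209.6, 205, 274 and 267 CPM, differed from WT by -0.26 ± 0.10 log2 (adjusted p = 0.202) and from Mem by 0.28 ± 0.09 (adjusted p = 0.128). Tek differed by -0.27 ± 0.09 (adjusted p = 0.160) and 0.22 ± 0.09 (adjusted p = 0.193), and Kdr, at 412, 397, 486 and 462 CPM, by -0.25 ± 0.12 (adjusted p = 0.318) and 0.19 ± 0.12 (adjusted p = 0.431). Neither difference was called for these 3 genes, so their place between the groups was not separated from either by the test. Flt1 was called against Mem (0.36, adjusted p = 0.0275) without Mem replicate 1, which gave 2 endothelial genes called higher in place of 1. Cdh5, at 1007, 1027, 924 and 890.5 CPM, lay wholly below WT although the difference of -0.29 ± 0.12 was not called (adjusted p = 0.259). Against Mem, 1 of the 10 genes was called higher and 1 lower, beside 0.862% and 1.37% of all genes (2.23% in either direction), and Edn1 was the gene without overlap (1.93% of all genes lay wholly above and 1.74% wholly below). The median difference of the 10 genes from Mem was 0.15.

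**Figure D5:**
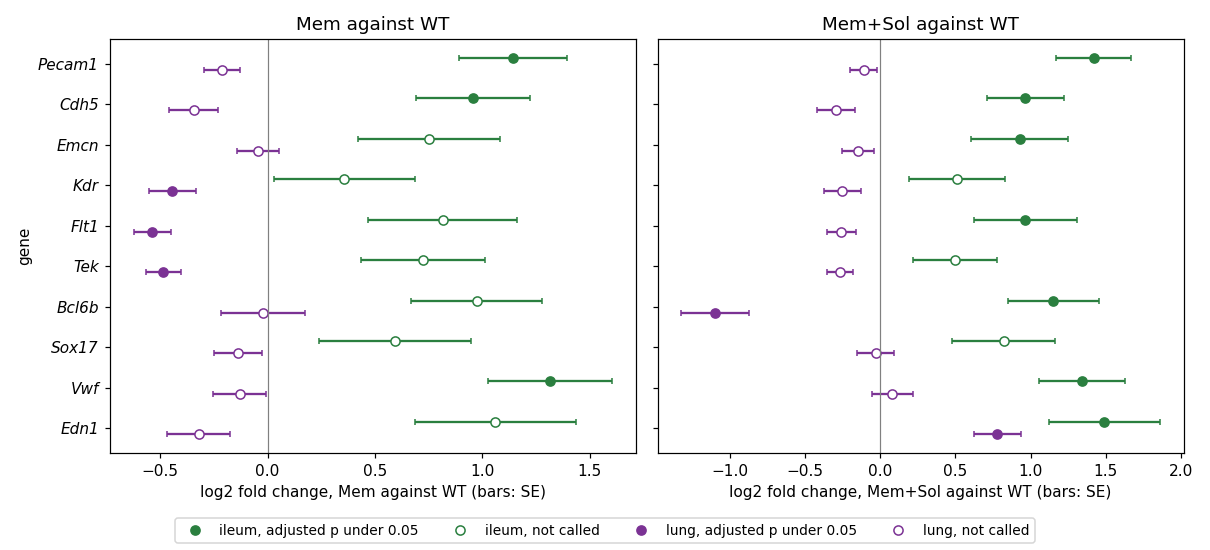
Log2 difference from WT of the 10 endothelial genes for Mem and Mem+Sol in ileum and lung; error bars are SE and filled points passed an adjusted p of 0.05. All 20 ileum points are above 0, all 10 Mem lung points are below 0, and in Mem+Sol lung Edn1 (0.78) and Bcl6b (-1.10) lie farthest from 0.

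The same lists were read in lung. Over all genes 6.41% were called higher and 3.05% lower in Mem, and 0.523% and 0.321% in Mem+Sol. Of 12 pan-endothelial genes, 0 were called higher and 2 lower in Mem (median -0.20), and 0 in Mem+Sol (median -0.13; edgeR; 1 at an unadjusted p under 0.05). Ptprb, the phosphatase that restrains Tek and Kdr signalling, fell in Mem from 1399 ± 219.9 CPM (SD, n = 5) to 938 ± 322 (-0.63 ± 0.11 log2, adjusted p = 0.00234), with overlapping groups. Angpt1, the ligand that activates Tek, fell from 105 ± 10.6 to 80.6 ± 14.7 CPM (-0.37 ± 0.08, adjusted p = 0.0113), so that 2 of 5 angiopoietin and Tie genes were called lower (median -0.37), of which Ptprb is also 1 of the 2 pan-endothelial genes. Ednrb, an endothelin receptor, fell from 197 ± 9.66 to 144 ± 30.4 CPM without overlap (-0.45 ± 0.10, adjusted p = 0.0104), and 2 of 5 endothelin pathway genes were called lower (median -0.30). Of 8 VEGF genes 2 were called lower (median -0.18), of 13 Notch and arterial genes 3 (-0.24), of 10 capillary genes 2 (-0.21) and of 6 lymphatic genes 2 (-0.24). Ednrb is counted in both the endothelin and the capillary list, and Flt4 in both the VEGF and the lymphatic list. Of 8 haemostasis genes Procr was called higher and Thbd lower (median -0.16), calls that were lost on leaving out any of 2 and 9 libraries and in batch 2 alone (adjusted p = 0.530 and 0.406). Of 8 venous and adhesion genes 3 were called higher in Mem (median 0.25) and 1, Ackr1, in Mem+Sol (median 0.09). Ackr1 lost its Mem+Sol call without the batch term (adjusted p = 0.231) and in batch 1 (0.442) or batch 2 (0.146) alone. In Mem+Sol lung edgeR called 0 genes of the other lists of endothelial function, in a comparison with few calls over all genes. The medians were -0.31 for the angiopoietin and Tie list, -0.19 for endothelin, -0.15 for VEGF, -0.05 for Notch, -0.16 for capillary, -0.03 for lymphatic and -0.10 for haemostasis genes. Unadjusted p-values under 0.05 were found there for 2, 2, 2, 2, 2, 0 and 2 genes. Tested directly against Mem, Mem+Sol had 1 of 13 Notch and arterial genes, Sox7, called higher (median 0.28, 8 at an unadjusted p under 0.05). Of 8 haemostasis genes 1, Procr, was called lower (median -0.19). edgeR called 0 genes of the other lists of endothelial function, beside 0.862% of all genes higher and 1.37% lower. Without the batch term Sox7 (adjusted p = 0.0782) and Procr (0.113) lost these calls. In Mem against WT, none of Ptprb, Angpt1 and Ednrb was called in batch 2 alone, where 5 genes in all were called. All 3 lost their calls without the batch term (adjusted p = 0.229, 0.121 and 0.123). Angpt1 was not called in batch 1 alone either (0.0588).

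Of 8 pericyte genes 2 were called lower in Mem lung (median -0.24), with sums of 474 to 527 CPM in WT, 339 to 470 CPM in Mem and 387 to 456 CPM in Mem+Sol. Pdgfrb, a growth factor receptor of mural cells, differed by -0.33 ± 0.10 log2 (adjusted p = 0.0479) and lost its call in 10 of 14 fits that each left out a library (adjusted p up to 0.168), without the batch term (0.135) and in batch 2 alone (-0.05, adjusted p = 0.802). Notch3, a receptor of mural cells, fell from 190 ± 11.4 to 141 ± 21.7 CPM (-0.43 ± 0.09, adjusted p = 0.00681; 0.0723 without the batch term and 0.243 in batch 2 alone). All 6 proliferation genes rose (median 1.22), with sums of 28.5 to 85.6, 83.0 to 184 and 59.2 to 72.4 CPM, and 3 of 6 leukocyte genes rose, with sums of 695 to 747, 808 to 1018 and 718 to 935 CPM. Epithelial sums overlapped (939 to 1123, 971 to 1180 and 843 to 1130 CPM), as did smooth muscle sums (783 to 1123, 652 to 1186 and 521 to 941 CPM), with 0 of 8 genes called in Mem for either list by edgeR (1 epithelial and 2 smooth muscle genes at an unadjusted p under 0.05). In Mem+Sol 1 of 8 smooth muscle genes, Smtn, was called lower (median -0.35). Smtn lost this call without the batch term (adjusted p = 0.472) and in batch 1 alone (0.431). Against Mem, Mem+Sol had 3 of 6 proliferation genes called lower (median -0.96) and 1 of 6 leukocyte genes, Itgax (median -0.13). Over all genes 1.37% were called lower there. Without the batch term Itgax (adjusted p = 0.0929) and the proliferation genes Top2a (0.0641) and Bub1 (0.102) lost these calls, and Cdk1 kept its own (0.0338). None of these lists had a gene at 0 throughout. Their part in the endothelial differences was not tested.

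The difference between tissues was tested in a single model over both. The Mem effect was lower in lung than in ileum for all 10 genes, with a median of -1.27 log2 (lung minus ileum) against -0.02 over 16867 genes, and 6 were called: Pecam1, Vwf, Cdh5, Tek, Flt1 and Edn1. Among all genes 4.67% were called lower and 3.56% higher (8.23% in either direction). Pecam1 differed most clearly, by -1.37 ± 0.28 (SE, adjusted p = 0.00394), and Tek, called in lung alone, by -1.23 ± 0.30 (adjusted p = 0.0118). Kdr (-0.81 ± 0.37, adjusted p = 0.169), Bcl6b, Emcn and Sox17 were not called. Flt1 lost its call without ileum Mem 4 (adjusted p = 0.0544) or lung Mem 3 (0.0518), and Edn1 lost its call in 20 of 30 fits that each left out a library (0.0511 to 0.112), with RLE scaling (0.0505) and without the filter (0.0562). Bcl6b was called by DESeq2 (adjusted p = 0.0499).

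For Mem+Sol the tissue difference was also negative for all 10 genes, with a median of -1.16 against -0.01 over all genes, and 6 were called: Bcl6b, Pecam1, Cdh5, Vwf, Flt1 and Emcn. The background was 11.6% of genes called lower and 6.55% higher (18.1% in either direction). Bcl6b, higher in ileum and lower in lung, differed by -2.24 ± 0.38 (adjusted p = 0.00038). Edn1, called higher in both tissues, differed by -0.68 ± 0.44 and was not called (adjusted p = 0.294), but Edn1 was without ileum WT replicate 1 (-1.21, adjusted p = 0.042). Flt1 lost its call without lung Mem+Sol 4 (0.0649) or lung WT 5 (0.0558), and Emcn lost its call without any of 9 libraries (0.0504 to 0.0962): ileum Mem+Sol 6 and WT 1, 3 and 4, and lung Mem+Sol 2, 3 and 4 and WT 2 and 5. The number called lower ran from 4 to 7 over the fits that left out a library, for either genotype. Both tissue tests share the WT libraries of each tissue, and tissue and sequencing batch cannot be told apart.

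Genes whose pattern was most like that of the 10 were sought by distance between their 4 differences from WT (Mem and Mem+Sol in ileum and lung, log2 of CPM plus 0.5) and the median of the 10 genes (0.92, 1.02, -0.26 and -0.15). Among 14226 genes measured in both tissues, the nearest were Adrb3 (distance 0.0496), Fert2 (0.0501), Tie1 (0.0740), Dmxl2 (0.0853) and Adcy4 (0.0905). Each comparison entering this distance shares its tissue's WT libraries.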

How the data were processed

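The authors deposited raw read counts per gene symbol, 1 table for ileum and 1 for lung, which were used as deposited. Per the submitters' processing notes, CASAVA and TopHat2 were used with build mm10; the sources used here do not name the counting tool, annotation or strand. Per the labels' protocols, libraries of poly-A RNA went through PCR, with no mention of molecular identifiers. The 27 ileum symbols turned into dates (0.182% of counts) stayed in the fits under those names, and 24035 symbols were shared by the tables.

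Counts were fitted in R 4.3.3 with edgeR 4.0.16 (filterByExpr by genotype, TMM, robust quasi-likelihood) and Benjamini-Hochberg adjustment over 14959 genes in ileum, 15885 in lung and 16867 in the model of both. Sex was a covariate, with sequencing batch in lung; residual degrees of freedom were 12, 9 and 21. CPM were counts scaled to a common library size after TMM, and SE was the log2 difference divided by the square root of F. No libraries were alike within sampling noise. Alternatives were DESeq2 1.42.0, other scalings, filters and covariates, a replicate block, thinning, single batches and leaving out each library. The scripts were tested on simulated data. All 10 genes are described, and other lists are given by counts and medians. Named list genes are among the up to 4 called per list and comparison with the smallest adjusted p, picked from these with values known. 1 result is not reported here. The 10 genes and all lists were chosen with earlier results of these data known. Exon lengths came from GENCODE M21 on GRCm38 and promoters from RefSeq on GRCm38.p6.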

Additional observations from a re-analysis of the deposited data

Results flagged for a closer look

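Of 60 groups of library values (10 genes in 6 groups), 4 held a library far from the others of its group, where chance flags about 1 in 20 groups. Cdh5 in ileum Mem+Sol replicate 5 was at 25.0 CPM, with the nearest library at 39.02 CPM. Edn1 in ileum Mem+Sol replicate 4 was at 33.1 CPM, with the nearest at 19.2 CPM. Bcl6b in ileum WT replicate 3 was at 4.82 CPM, with the nearest at 2.33 CPM. Pecam1 in lung Mem replicate 3 was at 653 CPM, with the nearest at 806 CPM.

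The effect of genotype differed between lung and ileum, by the interaction test, for 12 results. In Mem the differences (lung minus ileum, log2 ± SE) were -1.46 ± 0.33 for Vwf (adjusted p = 0.00825), -1.38 ± 0.37 for Flt1 (0.0207), -1.37 ± 0.43 for Edn1 (0.0461), -1.37 ± 0.28 for Pecam1 (0.00394), -1.31 ± 0.31 for Cdh5 (0.00954) and -1.23 ± 0.30 for Tek (0.0118). In Mem+Sol they were -2.24 ± 0.38 for Bcl6b (adjusted p = 0.00038), -1.52 ± 0.29 for Pecam1 (0.000994), -1.26 ± 0.35 for Vwf (0.0132), -1.25 ± 0.32 for Cdh5 (0.00745), -1.24 ± 0.38 for Flt1 (0.0259) and -1.08 ± 0.36 for Emcn (0.0354).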

How the results depend on the processing

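Over the results of single endothelial genes, 79 of 80 kept their direction and side of the threshold with RLE scaling, 76 of 80 with DESeq2 (the other 4 gained a call), 76 of 80 without the filter, 79 of 80 without sex, 69 of 80 with a replicate block, 54 of 60 with only the genotypes compared, 58 of 60 when thinned, 25 of 30 without the batch term, 22 of 30 in batch 1 alone and 19 of 30 in batch 2 alone. Replicate numbers were not taken as pairs: residuals of same-numbered libraries correlated at -0.350 to 0.552 in ileum (8 of 15 pairs over 0.1) and -0.317 to 0.354 in lung (5 of 13). The replicate block took the number of endothelial genes called lower from 6 to 3 in the tissue difference of Mem+Sol (Cdh5, Flt1 and Emcn), and higher from 1 to 0 in Mem+Sol lung against WT (Edn1, adjusted p = 0.0710). The block also ended the calls of Cdh5 in Mem ileum (0.0570) and Mem+Sol ileum (0.0629), Emcn in Mem+Sol ileum (0.0879) and Kdr in Mem lung (0.0563), and Bcl6b gained a call in Mem ileum (0.0418) and in the tissue difference of Mem (0.0442). Without the batch term the lung counts were 1 lower for Mem (3 before), and 0 higher and 0 lower for Mem+Sol against WT; Mem+Sol against Mem had 0 lower. The Mem+Sol count against WT was also 0 higher with only the genotypes compared and in batch 1 or batch 2 alone, and 0 lower without the filter and in batch 1 alone; Mem in batch 2 alone had 0 lower. Against Mem, the count was 0 higher in batch 2 alone, and 0 lower without the filter, with only the genotypes compared and in batch 1 alone. Leaving out 1 library gave 1 to 6 endothelial genes higher in Mem ileum, 5 to 7 in Mem+Sol ileum, 2 to 5 lower in Mem lung, 0 to 1 higher and 0 to 1 lower in Mem+Sol lung against WT, 1 to 2 higher and 0 to 1 lower against Mem, and 4 to 7 lower in each tissue difference; 1375 of 1500 single results were unaffected, 82 lost a call, 20 gained 1 and 23 changed sign. Sign changes were in values that were not called. Cdh5 in Mem+Sol against Mem ileum was -0.0136 without the filter, -0.0861 with the replicate block, -0.0441 when thinned and -0.0956 to 0.140 on leaving out libraries (Vwf -0.0936 to 0.163, Kdr -0.0674 to 0.272). In Mem lung Bcl6b was 0.0112 with only the genotypes compared, 0.295 in batch 1 and -0.252 to 0.183 on leaving out libraries, Vwf 0.0706 in batch 2, and Emcn 0.0241 in batch 2 and -0.0947 to 0.0409. In Mem+Sol lung Vwf was -0.144 in batch 1 and -0.0448 to 0.146, Sox17 0.0556 in batch 2 and -0.124 to 0.107, and Emcn 0.0078 in batch 1. Against Mem, batch 2 gave Pecam1 -0.0490, Cdh5 -0.304 where batch 1 gave 0.305 (-0.0108 to 0.147 on leaving out libraries) and Kdr -0.0438, and batch 1 gave Emcn 0.0654. The number of all genes called moved by over 1.5 times in several fits: 1205 to 1926 with DESeq2 in Mem ileum, 2 to 40 in Mem+Sol against Mem ileum, and 1388 to 2160 in the Mem tissue difference; 3053 to 1919 with the block in the Mem+Sol tissue difference; 1503 to 524 without batch, 956 in batch 1 and 5 in batch 2 for Mem lung; 134 to 634 with DESeq2, 243 without sex, 68 with the block, 18 without batch, 15 in batch 1 and 1190 in batch 2 for Mem+Sol lung; and 355 to 979, 143, 33 (only the genotypes compared), 34 without batch, 21 and 1736 for Mem+Sol against Mem lung. Leaving out libraries gave 448 to 2396 genes in Mem ileum, 2 to 8 in Mem+Sol against Mem ileum, 627 to 2006, 10 to 500 and 30 to 648 in the lung comparisons and 808 to 2779 in the Mem tissue difference. The causes were not tested. Counts down to 9 limit the ileum values.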

Other observations

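Genes of venous, capillary and lymphatic endothelium gave further values. Ackr1, a chemokine-binding receptor of venules, was at 0.486 ± 0.235 CPM (SD, n = 5) in WT lung and 2.05 ± 0.691 CPM in Mem lung, without overlap (log2 difference 1.92 ± 0.27, SE, adjusted p = 0.000825, edgeR). Of 8 venous and adhesion genes tested, 3 were called higher and 0 lower in Mem lung, beside 6.41% of all genes called higher and 3.05% lower. The other 2 called, Sele and Vcam1, lost their calls on leaving out any of 5 and 8 libraries. Car4, a carbonic anhydrase on the lung capillary list, rose in ileum from 123 ± 49.1 to 682 ± 228 in Mem and 931 ± 455 CPM (n = 6) in Mem+Sol (2.50 ± 0.43 and 2.95 ± 0.43 log2, adjusted p = 0.00335 and 0.000274). Epithelium of the gut also expresses Car4. Lyve1, a lymphatic marker, rose in ileum (0.58 ± 0.16 in Mem, adjusted p = 0.0379, and 0.67 ± 0.16 in Mem+Sol, adjusted p = 0.00527), and the Mem call was lost on leaving out any of 9 libraries. It was the 1 gene called of 6 lymphatic genes tested in each ileum comparison (medians 0.58 and 0.40), beside 5% and 16.6% of all genes called higher. In Mem lung Lyve1 was called lower (-0.45 ± 0.12, adjusted p = 0.0289), and lost that call on leaving out any of 5 libraries, without the sex term, without the batch term (0.185) and in batch 2 alone (0.0946).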
